A study of Homo sapiens with 12 samples.

Results

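The ER membrane protein complex (EMC) is described here through the mRNAs of its 10 subunits in oral squamous cell carcinoma (OSCC) cells after knockdown of FAT1, an atypical cadherin. The 10 genes EMC1, EMC2, EMC3, EMC4, EMC6, EMC7, EMC8, EMC9, EMC10 and MMGT1 (the subunit also called EMC5) were taken by symbol from a table of 19225 gene entries, and all 10 were among the 13887 genes with enough counts to be tested. The set was chosen from the data on one reading, since EMC6 was known to rise in the knockdown groups, and the question was whether its partner subunits followed. The differences of EMC6 between knockdown and control, and those between the siRNAs or lines in its rise, are therefore given as a description without a test, and knockdown is tested for the other 9 subunits.

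HN6 and HN30, both established human OSCC cell lines, were transfected by lipofection with a scrambled siRNA as negative control (NC), with siFAT1-1 or with siFAT1-2, and poly(A)-selected RNA was sequenced 24 h later. The 6 conditions were each sequenced in 2 repeats, described as biological and labelled time 1 and time 2. In all, 4 NC libraries stood beside 8 libraries with FAT1 knockdown (KD). The labels of the samples name the knockdown groups as hairpins 1 and 2, and their descriptions name siRNAs. All groups share the alterations of their tumor line and the transfection itself, and untransfected cells were not among the samples.

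The EMC is an insertase of the endoplasmic reticulum. It places transmembrane segments of newly made proteins in the membrane, among them tail-anchored proteins and the first segment of many multi-pass receptors and channels. EMC3 and EMC6 form the membrane-embedded insertase core, with MMGT1 and EMC4 beside them in the membrane. EMC1, EMC7 and EMC10 contribute the part in the lumen, and EMC2 with either EMC8 or EMC9, a pair of paralogs, forms the part in the cytosol. In cells, subunits that are not assembled are often degraded, so an mRNA level does not give the amount of complex.

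On GRCh38, EMC6 (ENSG00000127774) is a very short gene on chr17:3668812-3669668, plus strand, with 772 nt of exon. Its nearest neighbour TAX1BP3 is transcribed away from it on the opposite strand, and their starts lie 234 nt apart. The stretch between these starts is shown because both genes begin at it, and EMC6 and TAX1BP3 are compared below. The promoter of EMC4 is shown beside it because EMC4 was the subunit with the lowest fold change after knockdown. Both are read on the plus strand, the strand of each gene, from chr17:3668579-3668811 and chr15:34224766-34225015. Capitals mark CCAAT, the letters of the CCAAT box, and CCGGAAGT, a motif of ETS factors.
EMC6: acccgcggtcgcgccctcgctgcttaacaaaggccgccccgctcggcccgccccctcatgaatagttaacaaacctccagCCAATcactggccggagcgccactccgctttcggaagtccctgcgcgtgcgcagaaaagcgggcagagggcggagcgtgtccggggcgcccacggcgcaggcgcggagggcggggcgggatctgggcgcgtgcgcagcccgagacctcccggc
EMC4: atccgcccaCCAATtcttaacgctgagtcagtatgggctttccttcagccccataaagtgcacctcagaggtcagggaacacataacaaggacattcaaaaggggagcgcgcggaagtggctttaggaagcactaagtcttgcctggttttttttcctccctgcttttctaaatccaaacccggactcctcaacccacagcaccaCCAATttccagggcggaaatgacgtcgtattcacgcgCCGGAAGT

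The GC content was 72.1% in the EMC6 stretch and 51.2% in that of EMC4. Over the window from 250 bases before to 50 bases after each start, 8 of the subunits had a RefSeq promoter sequence (GRCh38.p14). EMC2 and MMGT1 had none in that set. CCAAT, searched on both strands, was present in 5 of the 8 (EMC1, EMC4, EMC6, EMC7 and EMC9), against 34.6% of 35116 promoters of that length. CCGGAAGT occurred in 1 of the 8, EMC4, against 4.14% of promoters. The ER stress response element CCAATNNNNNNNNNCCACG, which contains the CCAAT letters, occurred in 0 of the 8 and in 0.0769% of promoters, and TGACGTGG, the core of the unfolded protein response element, in 0 of the 8 and in 0.729%. These are matches of letters in the windows searched and no measurement of binding.

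Total counts per library ran from 26430049 to 47639010, and each EMC gene had between 141 and 12634 counts in a library, so the spread between repeats set the precision. In HN6, FAT1 stood at 17.1% of its NC level after siFAT1-1 and 28.0% after siFAT1-2, and in HN30 at 39.3% and 65.4%. Epithelial markers were abundant in every library, with a summed level of 1440 to 2770 CPM (counts scaled to a common library total) in NC and 1590 to 5010 in KD. KRT14, a keratin of basal epithelium, was the exception, with at most 2.42 CPM. The summed fibroblast list stood at 12.5 to 74.2 CPM in NC and 31.7 to 164 in KD. Of its genes, COL1A1 ran from 11.1 to 146 CPM and PDGFRB from 0.98 to 9.37. LUM reached 13.7 CPM and COL1A2 4.43, and COL3A1 and DCN were under 1 CPM in every library. Leukocyte markers summed to 27.4 to 98.5 CPM in NC and 24.3 to 124 in KD. Of these, CD68 ran from 16.1 to 121 CPM over all libraries, and CD14 had a median of 4.19 CPM. MS4A1 was at 0, and PTPRC, CD3E and LYZ were under 1 CPM in every library. Endothelial markers summed to at most 4.68 CPM in NC and 7.87 in KD. The part of these marker levels in the EMC results was not tested, and in bulk RNA fewer cells of a type and less RNA per cell cannot be told apart.

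EMC6, the small core subunit, was higher in all 8 KD libraries than in either NC library of the same line. Its HN6 levels were 30.0 and 46.0 CPM in NC, 82.4 and 80.7 after siFAT1-1, and 74.6 and 69.2 after siFAT1-2. In HN30 the levels were 28.2 and 18.4 CPM in NC, 51.8 and 54.6 with siFAT1-1, and 75.3 and 56.5 with siFAT1-2. The lowest KD library of either line (51.8 CPM) lay above the highest NC library of both (46.0 CPM). The mean rose from 38.0 ± 11.4 CPM (SD, n = 2) in HN6 NC to 81.5 ± 1.17 and 71.9 ± 3.81 with the siRNAs, and from 23.3 ± 6.86 in HN30 NC to 53.2 ± 1.96 and 65.9 ± 13.3. Fitted over both lines, the log2 fold change of EMC6 was 1.18, the value on which the set was selected.

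**Figure D1:**
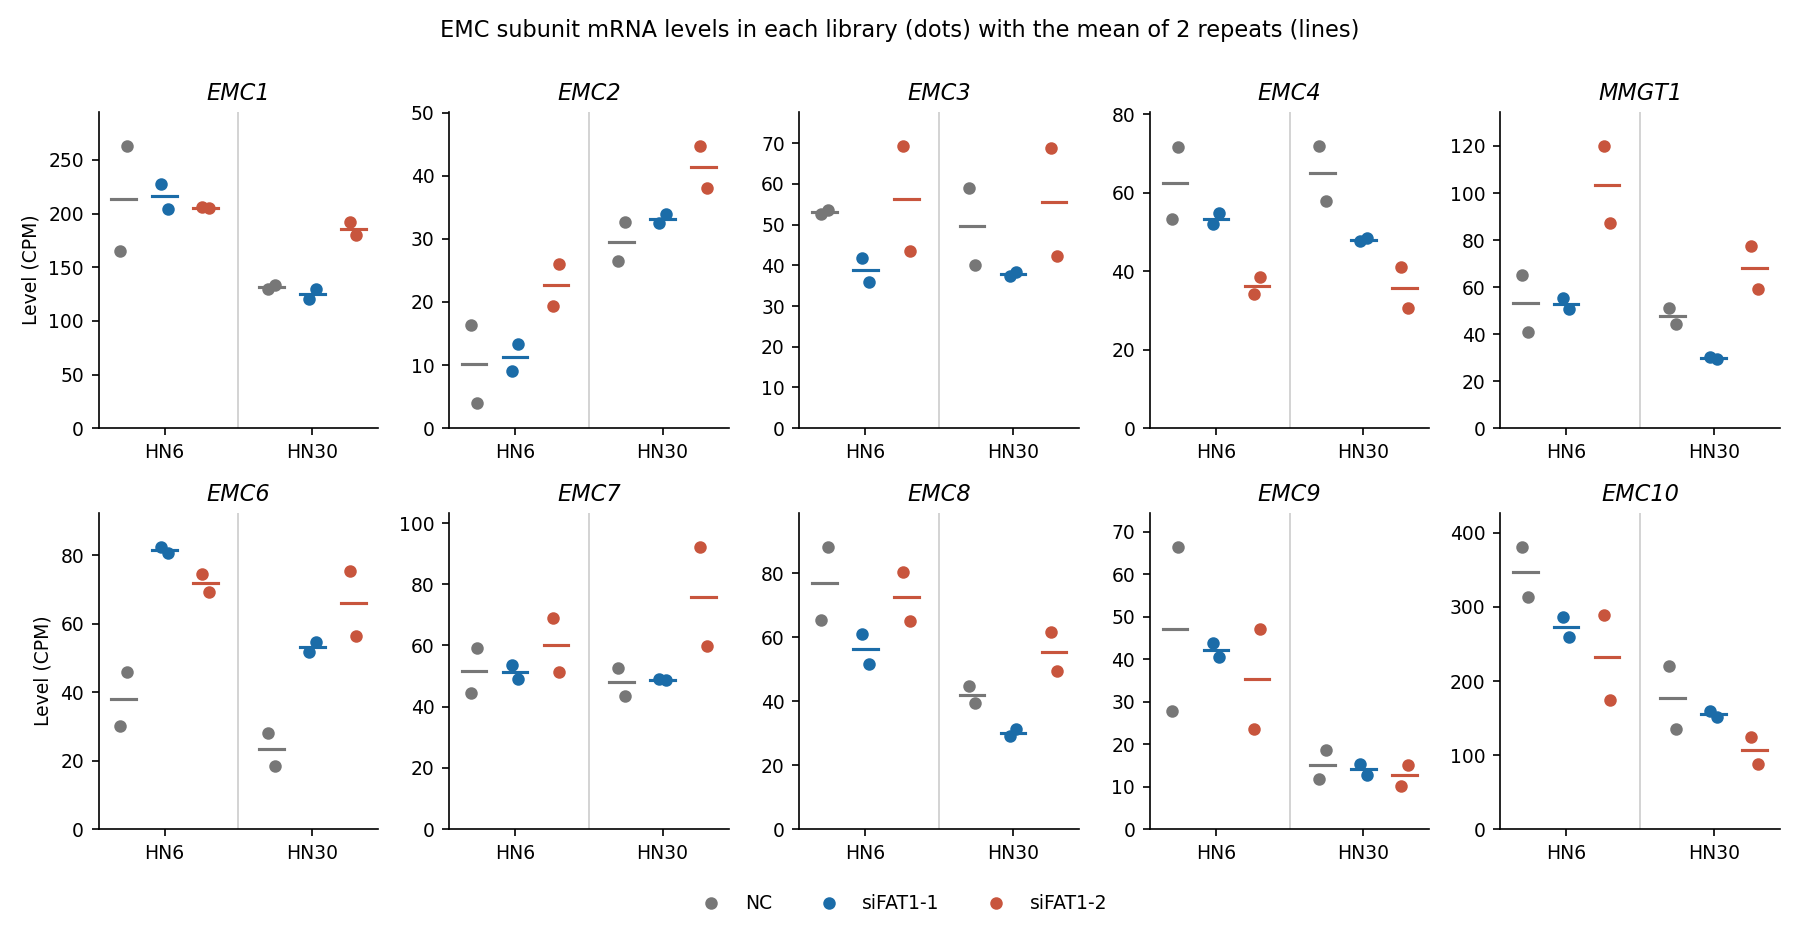
Level of each of the 10 EMC subunit mRNAs in CPM (vertical axis, from 0) in HN6 and HN30 cells given NC, siFAT1-1 or siFAT1-2; each dot is a library and each line the mean of 2 repeats. EMC6 stands above NC in all 8 KD libraries, while EMC4 is lowest and MMGT1 highest with siFAT1-2 in both lines.

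Ordered by FAT1 as a percentage of NC, the 4 KD conditions were not in the order of their EMC6 folds. FAT1 was reduced least in HN30 with siFAT1-2, to 65.4% of NC, and EMC6 was there at 2.83 times its NC level. Where FAT1 was lowest relative to NC, in HN6 with siFAT1-1 at 17.1%, EMC6 was at 2.15 times NC. The other conditions had EMC6 at 1.89 times NC (HN6, siFAT1-2, FAT1 at 28.0%) and 2.28 times NC (HN30, siFAT1-1, FAT1 at 39.3%). In CPM, FAT1 was at 5.56 and 9.26 in HN30 with siFAT1-1 and siFAT1-2, against 14.2 in NC. In HN6 it was at 10.6 and 17.3 CPM, against 61.8 in NC. Within HN6 the lower FAT1 went with the higher EMC6 fold, and within HN30 with the lower. With 4 conditions, no relation was tested.

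None of the other 9 subunits passed the test in the comparison of KD with NC in which EMC6 was chosen. In edgeR's quasi-likelihood fit, 0 of 9 passed an adjusted p of 0.05, against 0.547% of all genes tested, and DESeq2 and limma-voom also called 0 of 9. At the study's thresholds (a log2 fold change beyond 1 in either direction with P under 0.05, not adjusted), 0 of 9 passed, against 3.07% of all genes. Of the 9, 4 had fold changes above 0 and 5 below, with a median log2 fold change of -0.12 beside 0.02 over all genes. At an unadjusted P under 0.05 there were 2 of 9, both lower in KD, against 14.5% of all genes. For 8 of the 9 the upper bound of the 95% interval lay under a log2 fold change of 1, and the exception was EMC2, whose interval was wide. KD libraries that lay beyond both NC libraries, in one direction, in HN6 and in HN30 were found for 0 of the 9, against 5.44% of all genes.

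EMC3, the other insertase core subunit, did not pass the test. Its levels in HN6 were 52.5 and 53.6 CPM in NC, 41.7 and 35.8 with siFAT1-1 and 69.3 and 43.4 with siFAT1-2. In HN30 they were 59.1 and 40.1, 37.4 and 38.4, and 68.7 and 42.4 CPM. The siFAT1-1 libraries were below NC in both lines and the siFAT1-2 libraries overlapped NC. The log2 fold change over all KD libraries was -0.12, with a 95% interval from -0.60 to 0.36 (adjusted p = 0.831).

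EMC4, a membrane subunit beside the core, had the lowest fold change of the complex. In HN6 it was measured at 53.3 and 71.7 CPM in NC, 52.0 and 54.8 with siFAT1-1, and 34.3 and 38.4 with siFAT1-2. In HN30 the values were 71.9 and 57.9, 47.7 and 48.4, and 41.0 and 30.5 CPM. All siFAT1-2 libraries lay below all NC libraries of both lines, while siFAT1-1 overlapped NC in HN6. Its log2 fold change in KD was -0.55 ± 0.184 (SE), with an adjusted p of 0.195.

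MMGT1, the remaining membrane subunit, differed between the siRNAs. In HN6 there were 65.3 and 41.1 CPM in NC, 55.2 and 50.6 with siFAT1-1, and 120.0 and 87.1 with siFAT1-2. In HN30 the levels were 51.2 and 44.1 in NC, 30.1 and 29.4 with siFAT1-1, and 77.4 and 59.2 CPM with siFAT1-2. The siFAT1-2 libraries stood above NC in both lines, and siFAT1-1 stood below NC in HN30 alone. Averaged over both siRNAs the log2 fold change was 0.29 (95% interval -0.39 to 0.98, adjusted p = 0.699).

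None of the lumenal subunits EMC1, EMC7 and EMC10 passed the test. EMC10, which also occurs as a secreted form, had 381 and 313 CPM in HN6 NC, 286 and 259 with siFAT1-1, and 289 and 175 with siFAT1-2. In HN30 it had 220.0 and 135 CPM in NC, 160.0 and 152 with siFAT1-1, and 125 and 88.1 with siFAT1-2. Its KD libraries were all below NC in HN6 and overlapped NC in HN30, and the log2 fold change was -0.45 ± 0.198 (SE, adjusted p = 0.326). EMC1, the largest subunit, ranged from 130.0 to 263 CPM in NC and from 120.0 to 228 in KD, and its log2 fold change of 0.10 had a 95% interval from -0.26 to 0.47. EMC7 ranged from 43.6 to 59.1 CPM in NC and from 48.6 to 92.2 in KD (log2 fold change 0.24, 95% interval -0.19 to 0.67).

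None of the cytosolic subunits EMC2, EMC8 and EMC9 passed the test. EMC2, the scaffold of the cytosolic part and the partner with the highest fold change, had 16.4 and 3.97 CPM in HN6 NC, 9.01 and 13.4 with siFAT1-1, and 19.3 and 26.0 with siFAT1-2. In HN30 it had 26.5 and 32.6 in NC, 32.5 and 33.9 with siFAT1-1, and 44.7 and 38.0 CPM with siFAT1-2. The NC repeats of HN6 differed 4.13 times, and the log2 fold change of 0.53 (95% interval -0.22 to 1.28, adjusted p = 0.509) became 0.22 without HN6 NC repeat 2 and 0.85 without HN6 NC repeat 1. EMC8 and EMC9 had log2 fold changes of -0.12 (95% interval -0.58 to 0.35) and -0.24 (95% interval -0.79 to 0.32). EMC9 also varied 2.39 times between the HN6 NC repeats, at 27.8 and 66.4 CPM, and without HN6 NC repeat 2 its log2 fold change was 0.04.

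Each siRNA was then compared with NC in a fit with 3 treatments, in which both comparisons share the 4 NC libraries. With siFAT1-1, EMC6 had a log2 fold change of 1.14, and the other 9 had a median of -0.27 beside 0.00 over all genes, with 7 of them below 0. None of the 9 passed an adjusted p of 0.05 in edgeR (3.25% of all genes did), nor in DESeq2 or limma-voom. At an unadjusted P under 0.05 there was 1, EMC8 (log2 fold change -0.46, adjusted p = 0.179), against 19.0% of all genes. EMC3 and EMC8 were below NC without overlap in both lines, a pattern, in either direction, of 20.9% of all genes.

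With siFAT1-2, EMC6 had a log2 fold change of 1.22, and 2 of the other 9 passed an adjusted p of 0.05, against 11.8% of all genes. EMC4 fell by 0.82 on the log2 scale (SE 0.160, adjusted p = 0.00914), to 58.2% of NC in HN6 and 55.0% in HN30. MMGT1 rose, with a log2 fold change of 0.73 (SE 0.204, adjusted p = 0.0389), to 1.95 times NC in HN6 and 1.43 times in HN30. EMC10 had a log2 fold change of -0.66 (SE 0.203) and missed the threshold at an adjusted p of 0.0556, which became 0.0256 with the repeat as a replicate block. DESeq2 and limma-voom both called 3 of 9, with EMC10 added (adjusted p = 0.0399 and 0.047). EMC2 (0.83) and EMC7 (0.44) had an unadjusted P under 0.05 with adjusted p of 0.142 and 0.144, so that 5 of 9 had an unadjusted P under 0.05, against 28.9% of all genes. EMC2 and MMGT1 lay above NC in both lines and EMC4 and EMC10 below, and 22.5% of all genes were without overlap on 1 side or the other. The call of MMGT1 was lost on leaving out any library other than HN6 siFAT1-2 repeat 2 or HN30 siFAT1-2 repeat 2, with adjusted p from 0.051 to 0.104 in those 10 fits, and that of EMC4 was kept in all 12 such fits. With the siFAT1-1 libraries left out altogether, neither passed, at log2 fold changes of -0.76 for EMC4 (adjusted p = 0.0817) and 0.78 for MMGT1 (adjusted p = 0.136), and 0.453% of all genes passed in that fit.

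**Figure D2:**
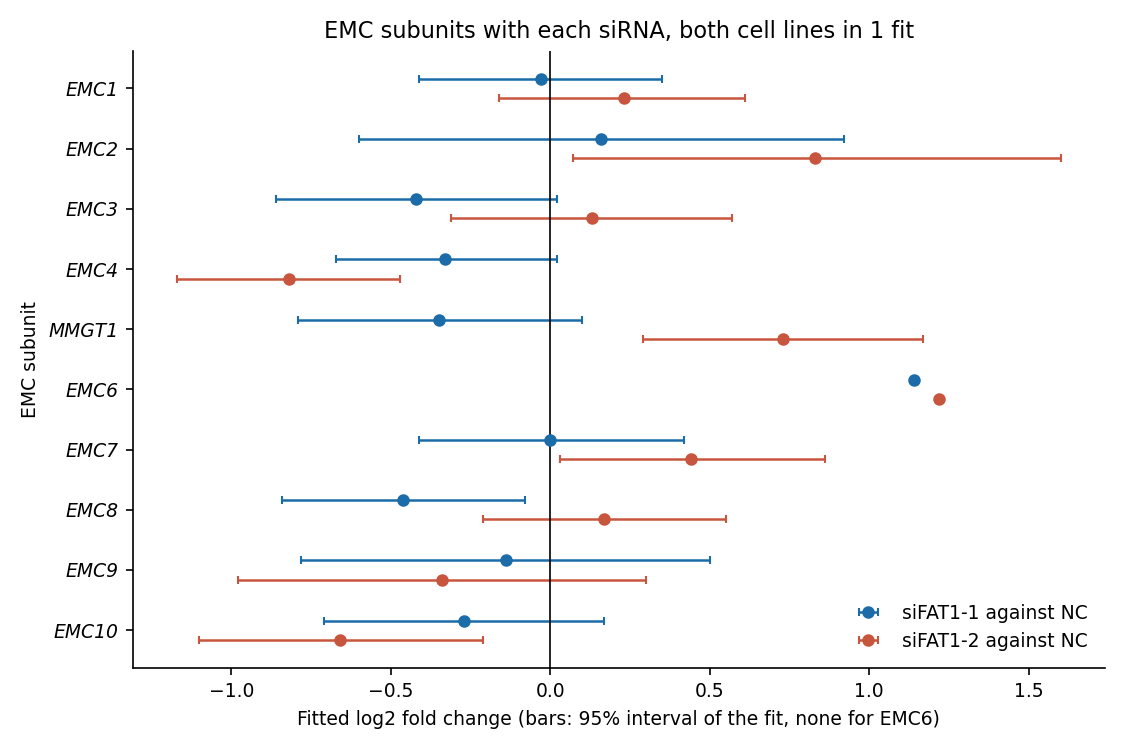
Fitted log2 fold change against NC (horizontal axis) of each EMC subunit with siFAT1-1 and siFAT1-2, both lines in 1 fit; bars are 95% intervals, and EMC6, on which the set was selected, is drawn as a point alone. EMC6 lies at 1.14 and 1.22, and MMGT1 at -0.35 with siFAT1-1 and 0.73 with siFAT1-2.

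The siRNAs were also compared directly. EMC6, chosen for its rise with both, had a log2 difference of -0.07 between siFAT1-1 and siFAT1-2, given without a test. MMGT1 was lower with siFAT1-1 than with siFAT1-2, with a log2 difference of -1.08 (SE 0.205, adjusted p = 0.0058), and the call was kept in all 12 fits that left out 1 library. EMC8 was also lower with siFAT1-1, at -0.63 (SE 0.176, adjusted p = 0.0304). Its levels with siFAT1-1 and siFAT1-2 were 61.0 and 51.5 against 80.3 and 64.9 CPM in HN6, and 29.0 and 31.4 against 61.5 and 49.5 CPM in HN30. The call of EMC8 was lost in 6 of the 12 fits, where the adjusted p was at most 0.106. Those fits left out any 1 of the 4 HN30 KD libraries, HN6 siFAT1-1 repeat 2 or HN6 siFAT1-2 repeat 1. EMC4 had a log2 difference of 0.49 at an adjusted p of 0.0513, or 0.0417 with the replicate block. In all, 2 of the 9 partners passed an adjusted p of 0.05 against 17.4% of all genes, and 5 of 9 had an unadjusted P under 0.05 against 33.8%.

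Within each line, 2 NC libraries were compared with 4 KD libraries. EMC6 had a log2 fold change of 1.04 in HN6 and 1.35 in HN30. Of the other 9 subunits, 0 passed an adjusted p of 0.05 with edgeR in either line, where 0% of all genes passed. At an unadjusted P under 0.05 there were 0 of 9 in HN6 (5.72% of all genes) and 1 of 9 in HN30 (9.30%), EMC4 with a log2 fold change of -0.64 and an adjusted p of 0.502. The interaction of cell line and knockdown was called for 0 of the 9 partners at an adjusted p of 0.05, and for 0% of all genes, and for 0 of 9 at an unadjusted P under 0.05, against 2.15% of all genes. For EMC6 the fitted interaction was 0.34 on the log2 scale, higher in HN30, given without a test.

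Several subunits differed between the lines in a fit over all 12 libraries with knockdown as a term. At an adjusted p of 0.05, 6 of the 10 differed between HN30 and HN6, against 49.2% of all genes. EMC9 was lower in HN30, with a log2 difference of -1.57 (adjusted p = 0.000221), at 15.2 ± 4.94 CPM (SD, n = 2) against 47.1 ± 27.3 in the NC libraries. EMC10 was lower by -0.95 (adjusted p = 0.00124), EMC8 by -0.68 (adjusted p = 0.0148) and EMC1 by -0.53 (adjusted p = 0.0154). EMC2 was the subunit that was higher in HN30, by 1.27 (adjusted p = 0.00605). EMC6 was lower in HN30, at -0.48 (adjusted p = 0.0329), but 7 of the 12 fits without 1 library lost this call, with an adjusted p of up to 0.0919. Those 7 left out HN6 NC repeat 2, HN30 NC repeat 2, HN30 siFAT1-2 repeat 2 or any 1 of the 4 siFAT1-1 libraries. In the 4 NC libraries alone, 0 of 10 passed, against 11.4% of all genes. The log2 differences there were -1.62 for EMC9, 1.55 for EMC2, -0.95 for EMC10, -0.85 for EMC8, -0.69 for EMC6 and -0.68 for EMC1.

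Levels were compared between subunits per kb of the canonical transcript, where EMC6 is the shortest at 656 nt. In HN6 NC, EMC4 (61.3 ± 12.7 CPM per kb, SD, n = 2), EMC6 (57.9 ± 17.3), EMC9 (56.2 ± 32.6) and EMC7 (48.4 ± 9.77) led the order, and no neighbours among these 4 differed beyond their spread. In HN30 NC the order began with EMC4 (63.7 ± 9.7), EMC7 (45.0 ± 5.9) and EMC6 (35.5 ± 10.5), and EMC7 and EMC6 overlapped within their SD. The order depends on the length used. Per kb of all exons of the gene, EMC6 was highest in HN6 NC (49.2 ± 14.7), EMC7 was highest in HN30 NC (33.1 ± 4.34), and EMC4 was 7th and 4th (14.1 ± 2.92 and 14.6 ± 2.22). In all 4 KD conditions EMC6 was the highest subunit with either length, at 81.1 ± 2.99 to 124 ± 1.78 CPM per kb of transcript. EMC2 was lowest, 10th of the 10, in both NC groups with either length, and 9th in the HN30 KD groups per kb of transcript. EMC6 made up 11.9% to 16.5% of the summed level per kb of the 10 subunits in the NC libraries and 28.3% to 32.0% in the KD libraries. The lowest KD library stood above the highest NC library in this share, and the 4 KD conditions were close to one another. The summed CPM of the other 9 subunits ran from 544 to 961 in NC and from 521 to 911 in KD, and overlapped.

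**Figure D3:**
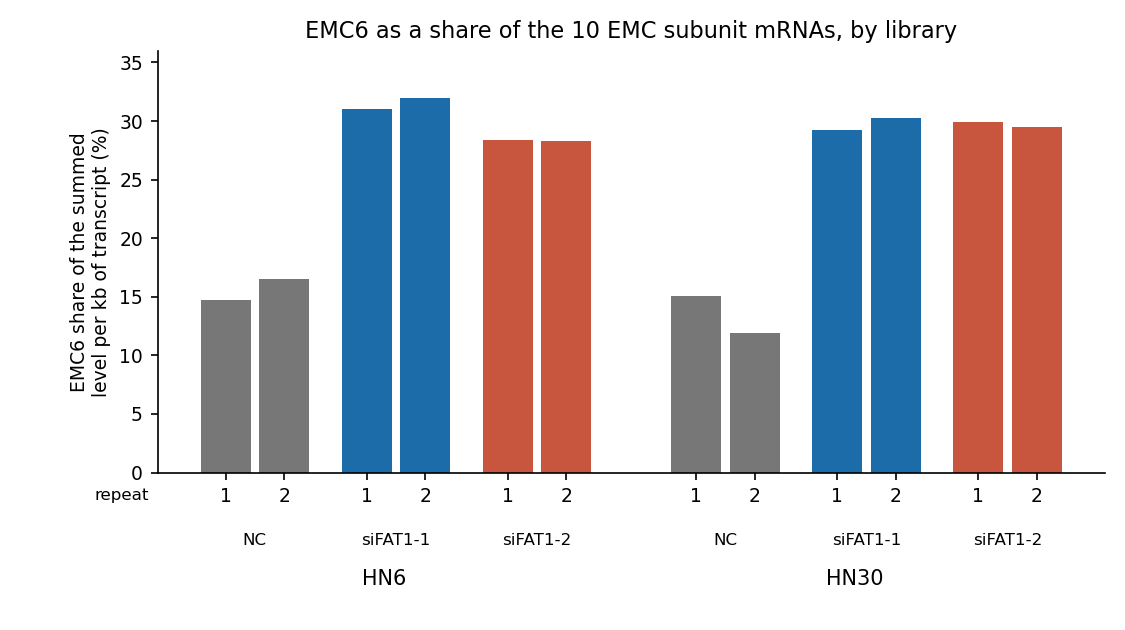
EMC6 as a percentage (vertical axis, from 0) of the summed level of the 10 EMC subunit mRNAs per kb of canonical transcript, 1 bar per library, by line, siRNA and repeat. NC bars stand between 11.9% and 16.5% and KD bars between 28.3% and 32.0%; EMC6 was chosen for its rise, so the step is a description.

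EMC6 is among the shortest genes of the table, and fold changes were summarised by exon length. In the shortest of 5 length classes (249 to 2889 nt) the median log2 fold change in KD was -0.03, and over all 5 the medians ran from -0.03 to 0.09.

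Genes next to the EMC genes were described as well, since several pairs share a start region. Altogether 5 EMC genes had a tested neighbour on the opposite strand with a start 151 to 341 nt from their own. Of these 5 neighbours, 0 passed an adjusted p of 0.05 in KD against NC with edgeR, against 0.547% of all genes. At an unadjusted P under 0.05 there were 0 of 5, against 14.5% of all genes. Over all 11 neighbours tested, 0 passed an adjusted p of 0.05 and 1 had an unadjusted P under 0.05. With so few genes, these counts cannot be told apart from the shares of all genes. TAX1BP3, a PDZ domain protein that starts 234 nt from EMC6 in the other direction, had 209 and 123 CPM in HN6 NC, 186 and 123 with siFAT1-1, and 151 and 79.7 with siFAT1-2. In HN30 it had 175 and 78.6, 112 and 121, and 173 and 80.5 CPM. NC and KD overlapped in both lines, and the repeats differed 1.52 to 2.23 times in all conditions but HN30 with siFAT1-1 (1.08 times). Its log2 fold change was -0.18 with a 95% interval from -0.79 to 0.42 (adjusted p = 0.797), beside 1.18 for EMC6 from the same start region, which is the stretch printed above. P2RX5, an ATP-gated channel gene 2530 nt beyond EMC6, was at 0.637 to 1.06 CPM in HN6 and 39.1 to 53.2 CPM in HN30 and had a log2 fold change of -0.11 (95% interval -0.48 to 0.26).

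The 5 pairs were EMC1 with MRTO4 (log2 fold changes 0.10 and -0.32), EMC6 with TAX1BP3, EMC7 with PGBD4 (0.24 and -0.18), EMC8 with COX4I1 (-0.12 and -0.21) and EMC10 with FAM71E1 (-0.45 and 0.14). EIF3E, a translation initiation factor gene next to EMC2, had a log2 fold change of 0.47 beside 0.53 for EMC2, and EMC9's neighbours PSME1 and PSME2, both proteasome activator genes, had -0.17 and -0.26 beside -0.24. How the authors' counting used the strand of the reads is not given in the sources used here, so reads where an EMC gene overlaps a gene on the opposite strand may be shared; EMC8, EMC9 and EMC10 each overlap a neighbour named here. EMC6 also lies within the span of P2RX5-TAX1BP3, a readthrough gene on the opposite strand that is not among the entries analysed here.

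**Figure D4:**
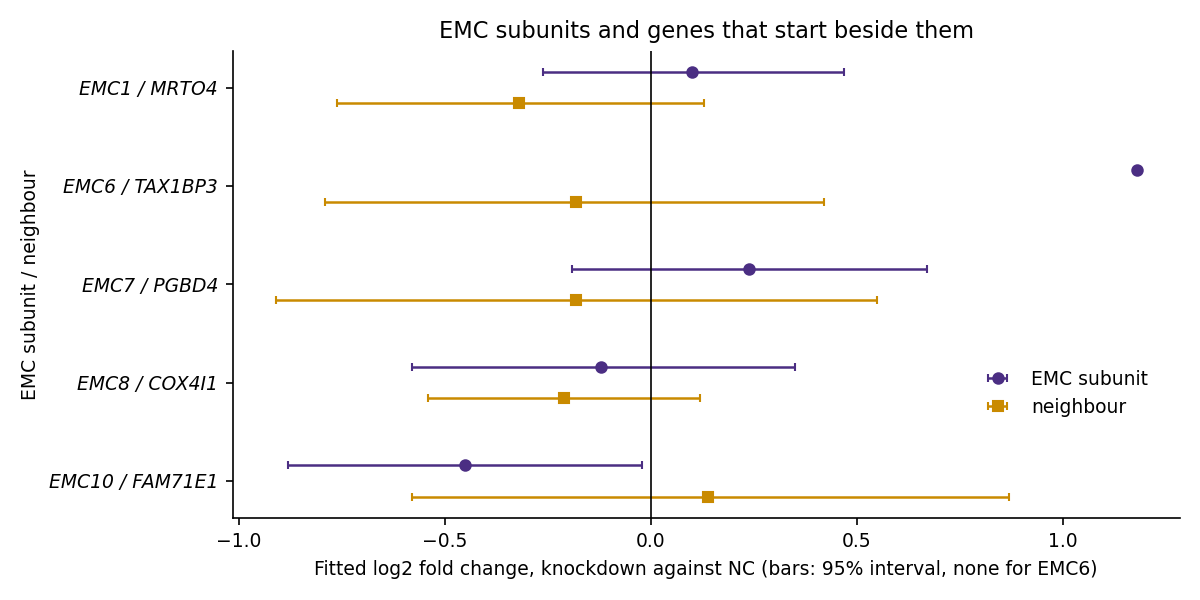
Fitted log2 fold change in KD against NC (horizontal axis) of 5 EMC subunits (circles) and the genes that start beside them on the opposite strand (squares), with 95% intervals; EMC6 is drawn as a point alone. EMC6, chosen for its rise, is at 1.18 and TAX1BP3 at -0.18, and the other 4 neighbours lie between -0.32 and 0.14.

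Over the 12 libraries, with log2 CPM centred within each line, the partner most like EMC6 was EMC7 (Pearson's r = 0.594), which was 787th among all genes. EMC1 had r = 0.47, EMC3 had r = -0.0231, and EMC4 had r = -0.581. Among the other pairs, EMC3 and EMC8 had r = 0.817, EMC7 and EMC8 had r = 0.764, EMC4 and EMC10 had r = 0.722, and EMC2 and EMC4 had r = -0.704. The genes most like EMC6 were ENSA (r = 0.978), KIF9 (0.976), PERP (0.969), STK38 (0.965) and GOLGA2 (0.963). ENSA encodes a phosphatase inhibitor that acts at mitotic entry, KIF9 a kinesin, PERP a desmosomal protein, STK38 a kinase and GOLGA2 a Golgi matrix protein. All points share their libraries and the step between NC and KD for which EMC6 was chosen. ENSA, the closest, had 73.4 and 116 CPM in HN6 NC and 140.0 to 161 in HN6 KD, and 99.2 and 61.6 CPM in HN30 NC and 137 to 164 in HN30 KD. Its KD libraries stood above NC in both lines, as those of EMC6 did, with a log2 fold change of 0.79. PERP belongs to the epithelial marker list above and ranged from 203 to 337 CPM in NC and from 515 to 860 in KD.

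The other machines that bring proteins to or into the ER membrane were examined as 5 lists of 48 genes, all of which were tested. They are the GET pathway for tail-anchored proteins, the multipass translocon, the SEC61 channel, the signal recognition particle (SRP) with its receptor, and the oligosaccharyltransferase (OST), which glycosylates proteins as they enter. In KD against NC, 0 of 48 passed an adjusted p of 0.05 with edgeR, against 0.547% of all genes, and at an unadjusted P under 0.05 there were 2 higher and 4 lower, which is 12.5% of the 48 against 14.5% of all genes. The list medians ran from -0.19 (GET pathway) to 0.10 (SRP), beside 0.02 for all genes. With siFAT1-1, 0 rose and 1 fell at an adjusted p of 0.05 (2.08% against 3.25% of all genes), and with siFAT1-2, 3 rose and 2 fell (10.4% against 11.8%). These shares were no higher than those of all genes, and the genes named next are given for their own values. No gene of these lists had a fold change in KD as high as that of EMC6. EMC6 was chosen for its rise, so this is a description and no comparison can be drawn from it.

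In the GET pathway 6 of 7 genes had a fold change below 0 in KD, as did 48.0% of all genes, and at an unadjusted P under 0.05 there were 1 higher and 1 lower. ASNA1, the ATPase that carries tail-anchored proteins, had a log2 fold change of -0.60 in KD (adjusted p = 0.0676) and fell with siFAT1-2 (-0.62, adjusted p = 0.0208). UBL4A, which hands clients to it, fell with siFAT1-2 by 1.53 on the log2 scale (adjusted p = 0.00253), against -0.23 with siFAT1-1 (adjusted p = 0.58). CAMLG, a subunit of the membrane receptor, rose with siFAT1-2 (0.77, adjusted p = 0.018) and had 0.28 with siFAT1-1 (adjusted p = 0.396). Compared directly, UBL4A was 1.30 higher with siFAT1-1 than with siFAT1-2 on the log2 scale (adjusted p = 0.00253), while CAMLG (-0.48, adjusted p = 0.0741) and ASNA1 (0.04, adjusted p = 0.881) did not pass.

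In the SRP list, SRP19 had a log2 fold change of 0.68 in KD (adjusted p = 0.154) and rose with siFAT1-2 (0.88, adjusted p = 0.0135). With siFAT1-1 it had 0.45 (adjusted p = 0.219). Compared directly, siFAT1-1 against siFAT1-2, SRP19 had -0.44 and did not pass (adjusted p = 0.122). SRPRA, the receptor's GTPase, had -0.74 (adjusted p = 0.115). SRP14 fell with siFAT1-1 (-0.87, adjusted p = 0.027) and had -0.01 with siFAT1-2, with -0.38 over both. Compared directly, siFAT1-1 against siFAT1-2, SRP14 had -0.86 (adjusted p = 0.0109). For the SEC61 channel, 2 of 12 had an unadjusted P under 0.05 (14.5% of all genes did), the paralogs SEC61A1 (-0.43, adjusted p = 0.24) and SEC61A2 (-0.46, adjusted p = 0.223), and TRAM1, the next in P, had 0.23. In the multipass translocon CCDC47 rose with siFAT1-2 (0.61, adjusted p = 0.0463) and had 0.01 with siFAT1-1, with 0.34 over both. In the direct comparison, siFAT1-1 against siFAT1-2, CCDC47 had -0.60 (adjusted p = 0.0388). TMCO1 had -0.23 and NOMO2 -0.25, and NOMO2 is uncertain because near-identical copies exist. In the OST, 0 of 12 had an unadjusted P under 0.05, against the same 14.5%, with fold changes from -0.27 (OST4) to 0.26 (OSTC), with STT3A, a catalytic subunit, at -0.22.

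**Figure D5:**
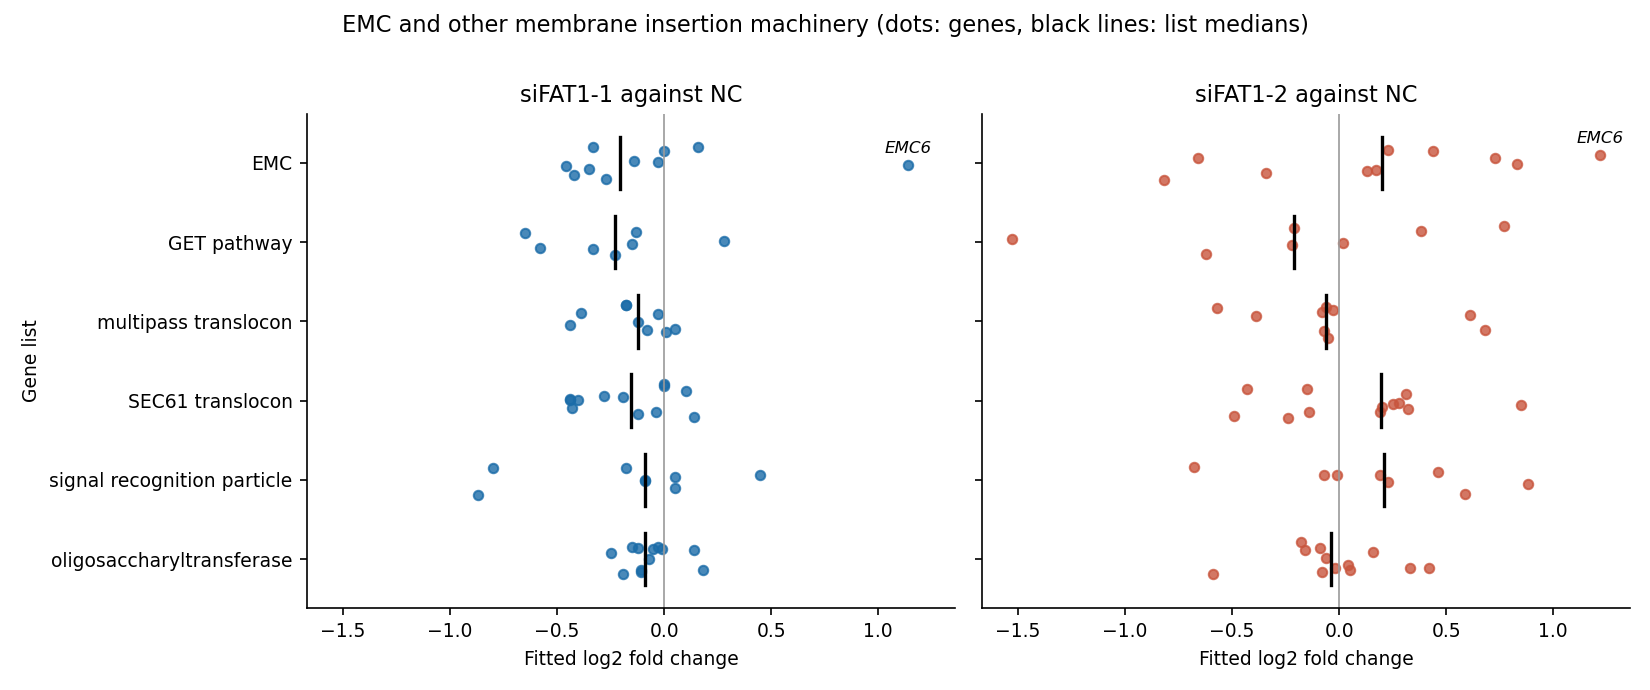
Fitted log2 fold change against NC (horizontal axis) of the genes of each list (dots, spread vertically for legibility) with list medians (black lines), for siFAT1-1 at left and siFAT1-2 at right. EMC6, at 1.14 and 1.22, is the dot farthest to the right in both panels, and UBL4A at -1.53 is the lowest with siFAT1-2. EMC6 was chosen for its rise, so its place is a description.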

How the data were processed

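RNA of 12 libraries (2 cell lines, 3 transfections, 2 repeats) was analysed. Reads with runs of N, of low quality or duplicated were discarded by the authors, and the deposited table holds whole-number read counts per gene without normalization. The submitters' processing notes name HISAT2, featureCounts and hg38. The annotation and strand setting are not given in the sources used here. Counts were normalized by TMM (factors 0.897 to 1.06), filtered with filterByExpr at a minimum count of 10 and tested with edgeR 4.0.16 (quasi-likelihood, cell line as a term where both lines entered, common dispersion 0.139), with Benjamini-Hochberg adjustment over all genes tested. CPM use TMM library sizes, and centred log2 CPM a prior count of 2. Errors after ± in CPM are SD over 2 repeats. limma 3.58.1 and DESeq2 1.42.0 in R 4.3.3 gave alternatives, as did other scalings, no filter, no line term, other sets of libraries, a replicate block and leaving out each library. The steps were tested on simulated data. Python 3.11.15, numpy 2.4.6 and pandas 2.3.3 made summaries and matplotlib 3.10.9 the figures.

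GENCODE 44 (GRCh38) held 18278 of the symbols as written, 753 were found by an older symbol, and 194 were unmatched. Promoters are from RefSeq. The members and gene lists were chosen with earlier results of these data known. Named genes were the 10 subunits, FAT1, neighbours within 5000 nt (not all reported here), the genes of each other list with an adjusted p under 0.05 in KD or else the 3 with the smallest P, and the 5 genes most correlated with EMC6. UBL4A, CAMLG, CCDC47, SRP14 and SRP19 also stand out with single siRNAs, and these and the 5 pairs of close starts were singled out after their values were seen. Repeats were made at separate times, so the numbers pair samples within a line: deviations of same-numbered libraries correlated across genes at 0.0778, 0.219 and 0.242 in HN6 and -0.0337, 0.405 and -0.0216 in HN30. In each condition the repeats differed by more than counting noise (chi-square per degree of freedom 14.4 to 238). The repeats are described as biological. Whether they were separate cultures is not stated further, so p-values measure the spread between these repeats. The number of columns left out was 0.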

Additional observations from a re-analysis of the deposited data

How the results depend on the processing

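Under scaling by DESeq2's size factors or total counts, no filter, limma-voom, the DESeq2 Wald test, no cell line term, 6 separate conditions and each left-out library, 0 of 9 partner subunits passed in KD against NC, as with TMM and edgeR. The number of all genes called there was 76, and became 640 with DESeq2, 491 with 6 conditions, 44 with the replicate block and 4 with no line term. With siFAT1-2, 2 of 9 subunits passed, against 0 when only that siRNA and NC were fitted (61 of all genes in place of 1641) and 1 to 2 without single libraries. DESeq2 and limma-voom called 3 of 9. DESeq2 called 2694 genes there and 1216 in place of 451 with siFAT1-1. Between the siRNAs 2 of 9 passed, 3 with limma-voom (EMC4 added), and 1 to 4 without single libraries (4 without HN6 NC repeat 2, with EMC2 and EMC4 added). Between the lines 6 of 10 passed, and 0 in the NC libraries alone, where 1562 of all genes passed in place of 6833 and fewer samples entered.

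Paired by repeat in a replicate block, 0 of 9 passed in KD, with siFAT1-1 and within each line, 3 of 9 with siFAT1-2 (EMC10 added) and 3 of 9 between the siRNAs (EMC4 added). The block changed no other subunit call in these comparisons, and was not run between the lines or for the interaction. Of 462 values of single tested subunits under alternatives, 411 kept direction and side of the threshold, 31 lost it, 9 gained it and 11 changed sign. The sign changes were all of values that had not passed. EMC6 in KD, not tested, ran from 1.04 to 1.34. Without single libraries EMC9 ran from -0.43 to 0.04 in KD, and between the lines EMC3 from -0.21 to 0.10, EMC4 from -0.12 to 0.06 and EMC7 from -0.09 to 0.16. In the NC libraries alone EMC4 was 0.07 and EMC7 -0.09. The cause of these shifts was not tested. With 2 repeats per condition, changes of single subunits smaller than about their 95% intervals were not detectable, and counting depth was not the limit.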
